A study of Homo sapiens with 5 samples.

Results

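The transcripts described here are the small nucleolar RNA (snoRNA) host genes and a set of known long noncoding RNAs (lncRNAs), measured in rhabdomyosarcoma cells in which a circular RNA, circVAMP3, was targeted with an siRNA. Members were chosen by symbol alone: every gene whose symbol starts with SNHG, and 25 symbols named in the rule (GAS5, ZFAS1, DANCR, TUG1, MALAT1, NEAT1, H19, MEG3, MEG8, MIAT, KCNQ1OT1, NORAD, OIP5-AS1, CYTOR, MIR17HG, MIR22HG, MIR100HG, LINC-PINT, PVT1, EPB41L4A-AS1, CRNDE, DLEU1, DLEU2, MIR503HG and PCAT6). This gave 45 members of the 13822 genes in the table, 23 with an SNHG symbol and 22 of the named symbols. MEG8, MIAT and PCAT6 were not analysed here. A filter on low values (a mean of at least 0.1 FPKM, fragment counts scaled by gene length and sequencing depth, over the 5 samples) was passed by 44 members and not by MEG3, which lay between 0.0311 and 0.0613 FPKM.

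All 5 samples were RH4 cells, an established human line of alveolar rhabdomyosarcoma, a tumour of the skeletal muscle lineage. The si-SCR group (n = 3) received a scrambled control siRNA and the si-circVAMP3 group (n = 2) an siRNA aimed at the back-splicing junction of circVAMP3, both at 30 nM. In both groups the culture medium was changed at 24 h and the cells were collected 24 h later. RNA was selected for poly-A tails and sequenced with strand information, and the methods describe the samples of a group as biological replicates of the same line, so the spread covers repeat transfections of 1 line and no other line or patient.

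A snoRNA host gene carries snoRNAs in its introns: splicing releases them, box C/D snoRNAs (SNORD) guide ribose methylation and box H/ACA snoRNAs (SNORA) guide pseudouridylation of ribosomal RNA, and the spliced exons of the noncoding hosts are often short-lived RNAs removed by nonsense-mediated decay. Many hosts, coding and noncoding, begin transcription at a cytosine followed by a run of pyrimidines, a start that is shared with ribosomal protein genes. The other members act in several ways, as cytoplasmic decoys of RNA-binding proteins (NORAD), as nuclear RNAs of speckles and paraspeckles (MALAT1, NEAT1), as imprinted transcripts (H19, MEG3, KCNQ1OT1) or as precursors of microRNAs (MIR17HG, MIR22HG, MIR503HG).

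The siRNA is shown because its bases are searched in the members below. Its target strand joins 8 bases from the end of VAMP3 exon 4 (chr1:7778162-7778169, plus strand, GRCh38) to 11 bases from the start of exon 3 (chr1:7777160-7777170), the junction of a circle of 211 bases by the exon edges, and capitals mark the exon 3 part. The guide strand is its reverse complement, without the overhang, and capitals mark its seed, bases 2 to 8.
siRNA target strand: catcatcgGTGGTGGACAT
siRNA guide strand: aTGTCCACcaccgatgatg
The letters that pair with the seed are GTGGACA, searched on the transcript strand only.

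Poly-A-selected gene-level values do not measure the circle, so they cannot show its knock-down. The linear host mRNA was the available check of the labels. It is a weak check, since the siRNA is aimed at the junction of the circle and 14.7% of all genes fell. VAMP3 read 36.4, 35.4 and 37.4 FPKM in the si-SCR samples and 29.4 and 30.2 FPKM in the si-circVAMP3 samples. The groups did not overlap, and the linear mRNA fell by 0.29 on the log2 scale (SE 0.0436, adjusted p 0.00507, limma with Benjamini-Hochberg adjustment over all genes tested). Without si-circVAMP3 replicate 1 this call was lost (adjusted p 0.0525, over the alternatives tried 0.00461 to 0.0525). The cells carried the markers of their line. DES, the muscle intermediate filament, lay between 248 and 291 FPKM and MYOD1, the myogenic master factor, between 84.3 and 127 FPKM. Of 16 rhabdomyosarcoma and myogenic markers, 14 had values (MYF5 and MYF6 were not analysed here), none rose with limma and 3 fell (21.4%, against 14.7% of all genes), among them MYOG (175, 179 and 149 FPKM in si-SCR, 101 and 96.6 FPKM in si-circVAMP3). At an unadjusted p below 0.05, 0 of these markers were higher and 5 lower (35.7%, against 20.7% of all genes). Their summed level was 1163, 1147 and 1007 FPKM in si-SCR and 946 and 955 FPKM in si-circVAMP3. In bulk samples such as these, fewer cells of a kind and less RNA per cell cannot be told apart. Markers of neural cells (RBFOX3, SNAP25 and GFAP) were not analysed here. Of 4 endothelial markers only PECAM1 was analysed, and it lay at 0.153 FPKM or lower. Of 6 fibroblast markers 4 were analysed (not COL1A2 and LUM), none passed the test with limma and 1 had an unadjusted p below 0.05, and the most abundant, COL3A1, read 27.1 to 33.6 FPKM, against at most 0.882 FPKM for the other 3. Of 5 epithelial markers only KRT8 was analysed, and it rose from a low level, 0.316, 0.215 and 0.256 FPKM in si-SCR to 0.651 and 0.5803 FPKM in si-circVAMP3. The part of these markers in the results on the members was not tested.

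Among the 44 members tested, 14 changed at an adjusted p below 0.05, which is 31.8% against 27.5% of all 13681 genes tested. Without si-circVAMP3 replicate 1 these counts were 9 members and 1277 genes, and without replicate 2 they were 7 and 1267. The 10 that rose made up 22.7% of the members, against 12.8% of all genes, and the 4 that fell 9.09%, against 14.7%. Fewer members rose, and fewer fell, when either si-circVAMP3 sample was left out. The median log2 fold change of the members was 0.12, and that of all genes tested 0.00. With the added demand of an absolute log2 fold change above 0.58, 4 members remained (NORAD, MIR503HG, ZFAS1 and SNHG32), against 5.8% of all genes. The samples of both groups were fully separated for 28 members (63.6%), the 14 called ones among them, and for 56.6% of all genes tested.

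**Figure D1:**
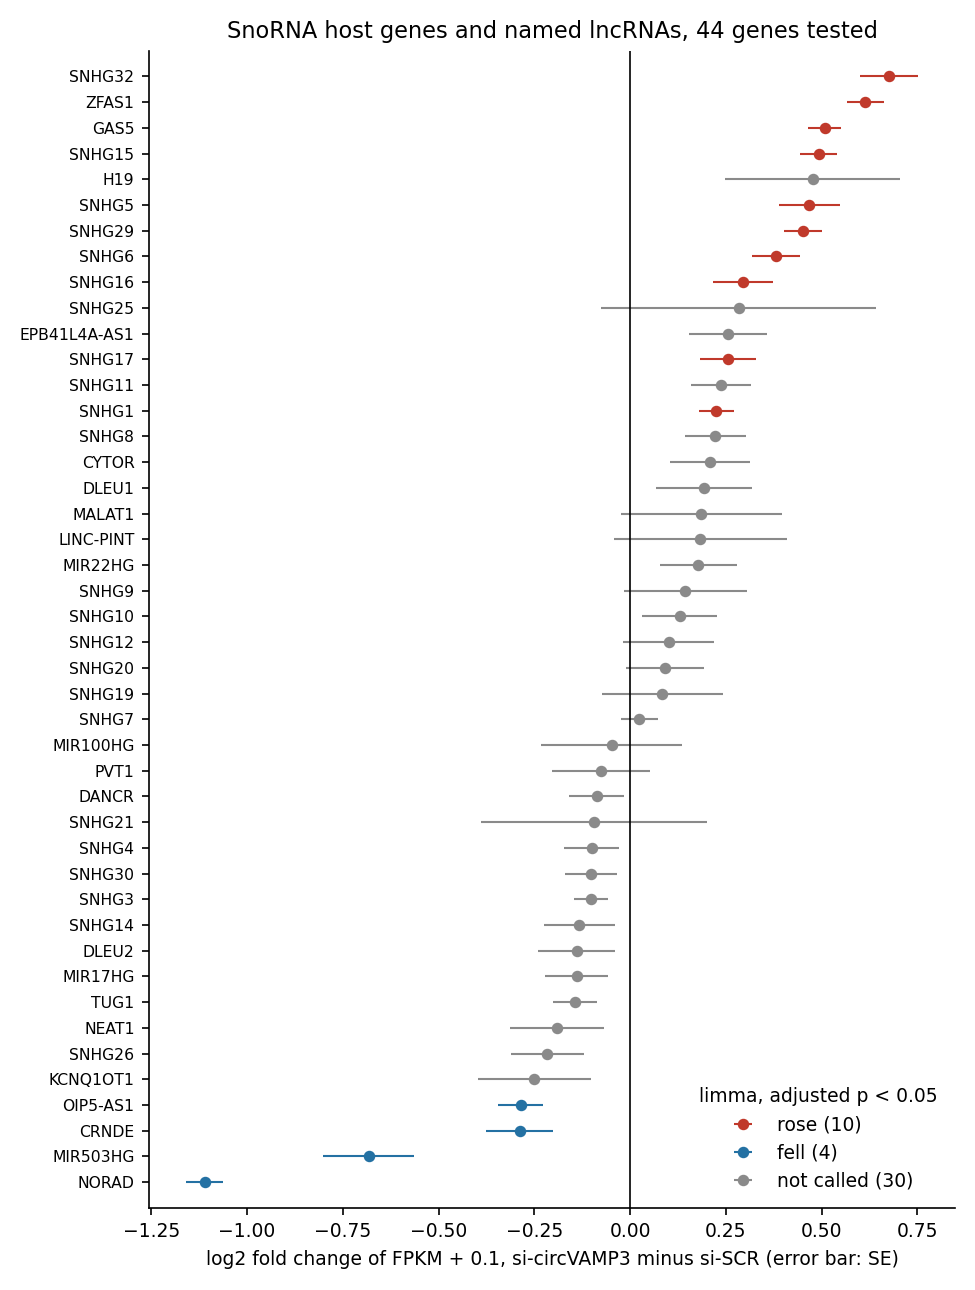
Log2 fold change of FPKM + 0.1 (si-circVAMP3 minus si-SCR, horizontal axis) of each of the 44 members tested, with its SE from limma as the bar; red marks members that rose, blue those that fell and grey those not called at an adjusted p of 0.05. NORAD lies at -1.11, apart from all others, and SNHG32 at 0.68 is the highest.

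Of the 1031 lncRNA genes tested that are not members, 25 rose (2.42%) and 164 fell (15.9%), and their median log2 fold change was -0.15. A mean of at least 10 FPKM was reached by 15 members (34.1%, against 31.7% of all genes tested), and of these 8 rose and 1 fell. Of all 4336 genes with such a mean, 948 rose (21.9%) and 777 fell (17.9%). Among the 6 tested members with a mean below 1 FPKM none passed the test with limma (against 27.5% of all genes). None of them had an unadjusted p below 0.05 (against 40.5%). These 2 shares are over genes of every level, not over genes with such a mean.

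**Figure D2:**
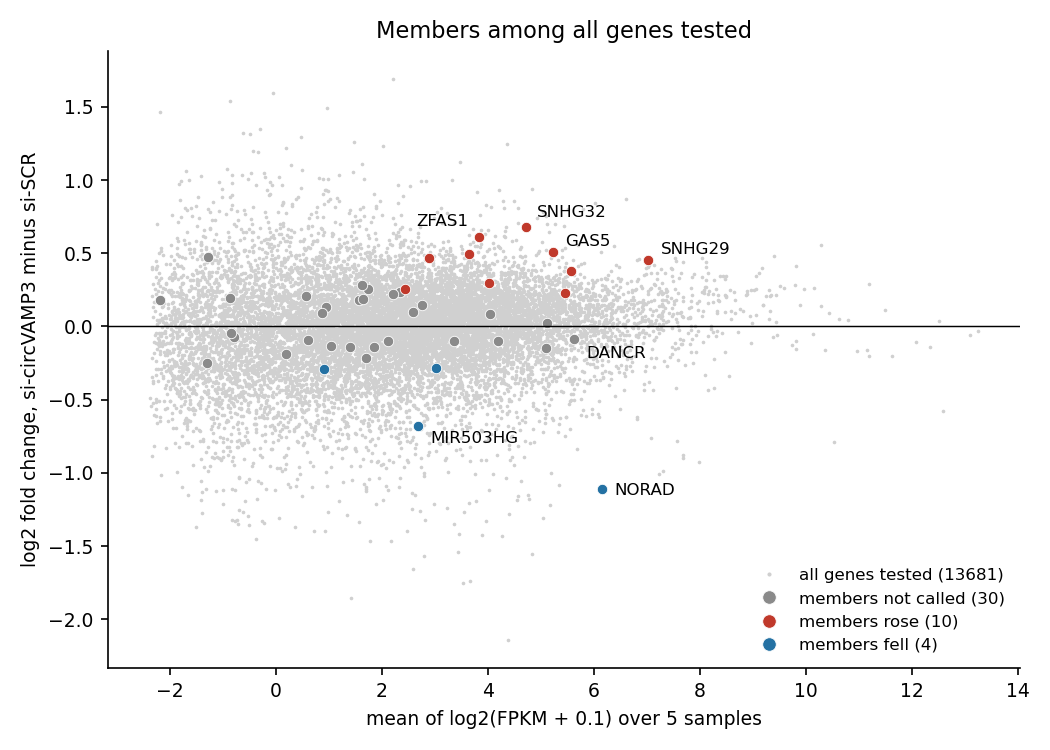
Log2 fold change (si-circVAMP3 minus si-SCR, vertical axis) against the mean of log2(FPKM + 0.1) over the 5 samples (horizontal axis) for all 13681 genes tested, with the members that rose (10, red), fell (4, blue) or were not called (30, dark grey) on top. The members that rose sit in the middle and upper range of abundance, SNHG29 the most abundant among them.

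NORAD, an abundant cytoplasmic lncRNA induced by DNA damage, had the largest decrease among the members. It read 96.7, 96.5 and 98.5 FPKM in the si-SCR samples and 42.9 and 47.1 FPKM in the si-circVAMP3 samples. The 3 controls lay within about 2 FPKM of each other, and both si-circVAMP3 samples lay far below all of them. The means were 97.2 ± 1.10 FPKM (SD, n = 3) and 45.0 ± 2.95 FPKM (SD, n = 2), a log2 fold change of -1.11 (SE 0.0491, adjusted p 0.000102). These levels rest on 13937, 13021 and 13271 fragments in si-SCR and 4297 and 7326 in si-circVAMP3, where the latter 2 libraries also differ in depth. The call held under every alternative tried, with adjusted p between 7.66e-05 and 0.00406.

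The NORAD gene is a single exon of 5401 bases at chr20:36045618-36051018 on the minus strand (GRCh38). It holds the seed match of the siRNA at 2 places, shown here because NORAD is the member with the largest decrease. Positions are those of the first base of the seed match in the transcript. Capitals mark the unbroken run of bases shared with the siRNA target strand. This run has 10 bases for the match at position 2440 (chr20:36048572-36048591) and 7 bases for that at position 4568 (chr20:36046444-36046463).
NORAD, position 2440: gctgtgtatGTGGTGGACAa
NORAD, position 4568: cctgtgttcattGTGGACAa
The linear VAMP3 mRNA also holds 2 such places, 1 with 12 shared bases and 1 with 7. The latter lies in exon 3 (chr1:7777172-7777191, plus strand).
VAMP3, position 164: gtagatgaGGTGGTGGACAT
VAMP3, position 185: atgcgagttaacGTGGACAa
A match is a description, not a site of action or a cause.

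The members that rose were all snoRNA hosts. By RefSeq, 24 members hold at least 1 snoRNA gene, of which 10 rose (41.7%, against 12.8% of all genes) and none fell (against 14.7%). The other 20 members tested hold none, and of these none rose and 4 fell (20%). Members with and without a snoRNA gene also differ in abundance. Of those without, only NORAD and TUG1 had a mean of at least 10 FPKM, and the 6 tested members below 1 FPKM are all among them. Of all genes with a mean of at least 10 FPKM, 21.9% rose and 17.9% fell. The part of abundance in the difference between hosts and other members was not tested. Fewer members, and fewer of all genes, rose or fell when either si-circVAMP3 sample was left out. At an unadjusted p below 0.05 with limma, the counts were 13 higher and 0 lower among the hosts, and 0 higher and 5 lower (25.0%) among the rest, where 19.7% of all genes were higher and 20.7% lower. Of 14 members holding a SNORD gene 8 rose, and of 10 holding SNORA genes only 2 rose. At an unadjusted p below 0.05, 8 of the 14 (57.1%) and 5 of the 10 (50%) were higher and none lower, and the difference between these kinds of host was not tested. The median log2 fold change was 0.29, 0.18 and -0.08 for SNORD holders, SNORA holders and members with no snoRNA gene. Summed over the SNORD holders, the level was 326, 314 and 324 FPKM in si-SCR and 425 and 422 FPKM in si-circVAMP3. The same sum over the members holding SNORA genes only was 146, 148 and 151 FPKM in si-SCR and 151 and 154 FPKM in si-circVAMP3. What was counted is the spliced poly-A RNA of the host, so these values say nothing of the snoRNAs themselves.

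**Figure D3:**
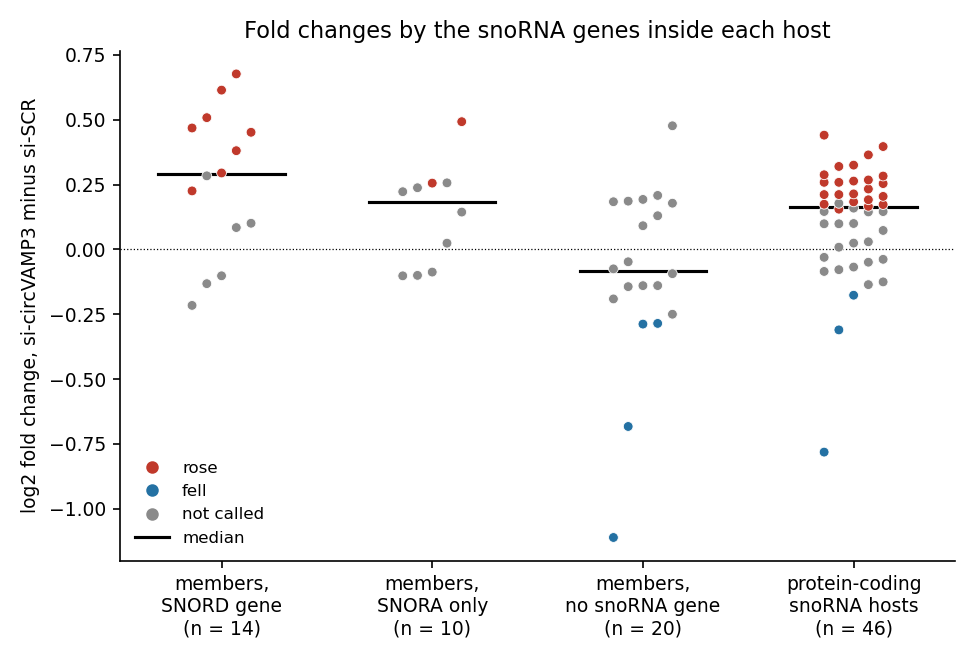
Log2 fold change (si-circVAMP3 minus si-SCR, vertical axis) of the members by the snoRNA genes they hold and of 46 protein-coding snoRNA hosts; each point is a gene, coloured by its call, and the black line is the median. Of the 14 SNORD holders 8 are red, while none of the 20 members with no snoRNA gene is.

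ZFAS1 holds SNORD12, SNORD12B and SNORD12C and starts beside the gene of the zinc finger protein ZNFX1. It read 11.8, 11.7 and 12.2 FPKM in si-SCR and 17.9 and 18.6 FPKM in si-circVAMP3. Its controls were nearly equal, both si-circVAMP3 samples were above them, and it rose 1.53-fold (log2 fold change 0.61, SE 0.0482, adjusted p 0.000604). GAS5, the growth-arrest transcript with 11 snoRNA genes in RefSeq (none in GENCODE 44), 10 of them SNORD, read 32.7, 31.9 and 33.1 FPKM in si-SCR. In si-circVAMP3 it read 47.6 and 45.1 FPKM. This was a 1.42-fold rise with no overlap (log2 fold change 0.51, SE 0.0438, adjusted p 0.000822). SNHG32, which holds SNORD48 and SNORD52, had the largest increase among the members. Its levels were 24.0, 20.7 and 20.8 FPKM in si-SCR and 33.6 and 36.1 FPKM in si-circVAMP3. The control of replicate 1 stood above the other 2, and the lower si-circVAMP3 sample was still well above it (log2 fold change 0.68, SE 0.0756, adjusted p 0.00183). SNHG29, host of SNORD49A, SNORD49B and SNORD65, was the most abundant member. It read 111, 114 and 121 FPKM in si-SCR and 161 and 154 FPKM in si-circVAMP3, a difference of more than 30 FPKM between the nearest samples of the groups (log2 fold change 0.45, SE 0.0498, adjusted p 0.00173).

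Of the remaining SNORD hosts, SNHG6 and SNHG5 showed increases of middling size. SNHG6, the host of SNORD87, read 45.7, 41.4 and 41.5 FPKM in si-SCR and 53.4 and 58.1 FPKM in si-circVAMP3. The groups were separate, with si-SCR replicate 1 and si-circVAMP3 replicate 1 the nearest (log2 fold change 0.38, adjusted p 0.00657). SNHG5, with SNORD50A and SNORD50B, read 6.92, 5.87 and 6.52 FPKM in si-SCR and 8.80 and 9.05 FPKM in si-circVAMP3. All si-circVAMP3 values were above all controls (log2 fold change 0.47, adjusted p 0.00757). SNHG1 holds 9 snoRNA genes, 8 of them named SNORD. It read 42.0, 41.6 and 40.2 FPKM in si-SCR and 49.9 and 46.6 FPKM in si-circVAMP3, and with a log2 fold change of 0.23 it had the smallest rise among the 10 (adjusted p 0.0144). SNHG16, host of SNORD1A, SNORD1B and SNORD1C, read 13.6, 14.7 and 16.3 FPKM in si-SCR and 18.6 and 17.8 FPKM in si-circVAMP3. Its highest control came close to the lower si-circVAMP3 sample without reaching it (log2 fold change 0.29, adjusted p 0.0329). The calls of SNHG6, SNHG5, SNHG1 and SNHG16 were each lost when 1 si-circVAMP3 sample was left out. SNHG6 lost it without replicate 2 (adjusted p 0.05999), SNHG1 without replicate 1 (0.114), SNHG5 without either (0.0535 and 0.0650) and SNHG16 without either (0.176 and 0.114). Over all alternatives tried, the adjusted p reached from 0.00480 to 0.05999 for SNHG6, from 0.00651 to 0.0650 for SNHG5, from 0.0110 to 0.114 for SNHG1 and from 0.00633 to 0.176 for SNHG16. SNHG16 also lost it without si-SCR replicate 1 (0.0557) or replicate 2 (0.0934), and SNHG1 (0.0529) and SNHG16 (0.0726) lost theirs in the fit with no trend.

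SNHG15 and SNHG17 were the 2 hosts of SNORA genes without a SNORD gene that rose. SNHG15, which holds SNORA9, read 11.1, 10.6 and 10.7 FPKM in si-SCR and 15.4 and 15.1 FPKM in si-circVAMP3. Both groups were tight and wide apart (log2 fold change 0.49, SE 0.0485, adjusted p 0.00124). SNHG17, with SNORA71A, SNORA71B, SNORA71C and SNORA71D, read 4.72, 4.93 and 5.14 FPKM in si-SCR and 5.65 and 6.16 FPKM in si-circVAMP3. The separation was about as wide as the spread of the controls (log2 fold change 0.26, adjusted p 0.0406), and the call ended without si-SCR replicate 1 (0.0920) or 2 (0.110), or si-circVAMP3 replicate 1 (0.0903) or 2 (0.233), and with no trend (0.0567). The adjusted p of SNHG17 ran from 0.0297 to 0.233 over the alternatives, and that of SNHG15 from 0.00109 to 0.0213.

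**Figure D4:**
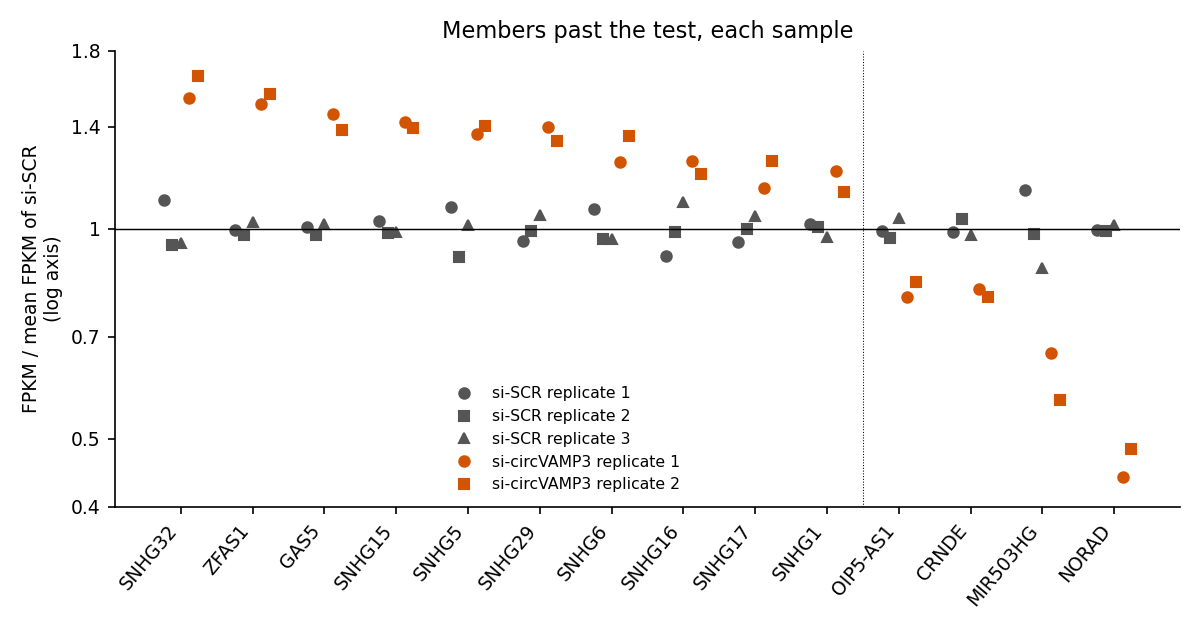
FPKM of each sample divided by the si-SCR mean of the same gene (vertical axis, logarithmic) for the 14 members past the test, ordered by log2 fold change; grey symbols are the 3 si-SCR samples and orange symbols the 2 si-circVAMP3 samples, and the dotted line parts members that rose from those that fell. Both orange symbols are on the same side of all 3 grey ones for each gene, with SNHG32 and NORAD at the ends.

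The other 14 snoRNA hosts were not called. SNHG11, EPB41L4A-AS1 and SNHG8 were nearest. SNHG11 (SNORA60 and SNORA71E) read 4.78, 4.90 and 4.27 FPKM in si-SCR and 5.56 and 5.43 FPKM in si-circVAMP3, with no overlap (log2 fold change 0.24, adjusted p 0.0660); after median-centring its adjusted p was 0.0470 (over all alternatives 0.0470 to 0.252). EPB41L4A-AS1 (SNORA13) had means of 3.01 ± 0.2496 FPKM (SD, n = 3) and 3.62 ± 0.345 FPKM (SD, n = 2), and its adjusted p was 0.108. SNHG8 (SNORA24) had means of 4.25 ± 0.299 and 4.97 ± 0.103 FPKM (SD, n = 3 and 2) and an adjusted p of 0.0821. DANCR, the host of SNORA26 and one of the 6 most abundant members, read 45.9, 52.0 and 54.0 FPKM in si-SCR and 48.6 and 46.5 FPKM in si-circVAMP3. The groups overlapped (log2 fold change -0.09, adjusted p 0.409, over the alternatives 0.0678 to 0.748). The log2 fold change of DANCR was -0.16 without si-SCR replicate 1, -0.04 without si-SCR replicate 3 and -0.06 without si-circVAMP3 replicate 2. SNHG7 (SNORA17A and SNORA17B) lay between 33.8 and 36.0 FPKM in all 5 samples, with the groups interleaved. SNHG3, host of SNORA73A and SNORA73B, had means of 18.7 ± 0.369 and 17.4 ± 0.213 FPKM (SD, n = 3 and 2) and an adjusted p of 0.133. SNHG14, the imprinted host of 83 SNORD genes, lay between 1.85 and 2.14 FPKM. The very short SNHG25, whose exons add up to 340 bases, spread from 1.87 to 4.47 FPKM within si-SCR alone. It read 4.27 and 2.62 FPKM in si-circVAMP3, and its sign turned without si-circVAMP3 replicate 1 (log2 fold change -0.06). The adjusted p of SNHG25 was 0.598, and ran from 0.0272 to 0.971 over the alternatives, 1 of which called it as higher. SNHG4, SNHG9, SNHG12, SNHG19, SNHG26 and SNHG30 had adjusted p between 0.139 and 0.729. The SNHG members without a snoRNA gene in RefSeq, SNHG10, SNHG20 and SNHG21, lay between 0.989 and 2.01 FPKM, with adjusted p between 0.365 and 0.840.

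Protein-coding genes that carry snoRNAs in their introns, many of them ribosomal protein and translation genes, were set beside the noncoding hosts. Of 46 such hosts 23 rose (50%) and 3 fell (6.52%), with a median log2 fold change of 0.16. Of all genes 12.8% rose and 14.7% fell, and of those with a mean of at least 10 FPKM 21.9% and 17.9%. TPT1, the translationally controlled tumour protein, read 245, 243 and 254 FPKM in si-SCR and 334 and 336 FPKM in si-circVAMP3 (log2 fold change 0.44, adjusted p 0.000960). RPL13A, a protein of the large ribosomal subunit, rose by 0.40 (adjusted p 0.00169), and by 0.22 after quantile normalization (adjusted p 0.0186, over the alternatives 0.00133 to 0.0254). EIF4G2, a translation initiation factor, went the other way and fell by 0.78 on the log2 scale (adjusted p 0.000353). Of 19 genes of the snoRNP core and its assembly, 4 rose (21.1%, against 12.8% of all genes) and 1 fell (5.26%, against 14.7%). At an unadjusted p below 0.05, 8 were higher (42.1%, against 19.7%) and 2 lower (10.5%, against 20.7%). The risers included the scaffold NOLC1 (log2 fold change 0.32, adjusted p 0.00194), the box C/D core protein NOP56 (0.26, adjusted p 0.00494) and the assembly factor ZNHIT3 (0.34, adjusted p 0.00612), and PIH1D1 of the assembly complex fell (-0.16, adjusted p 0.0395). Without si-circVAMP3 replicate 1 the calls of NOP56 (0.0525) and ZNHIT3 (0.0593) were lost. PIH1D1 lost its call without si-SCR replicate 1 (0.0874) or 2 (0.121), or si-circVAMP3 replicate 1 (0.168) or 2 (0.171), after median-centring (0.0647) and with no trend (0.0829). Their part in the levels of the noncoding hosts was not tested.

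The start sites of the members that rose are shown because pyrimidine starts are a known feature of snoRNA hosts. Windows run from 20 bases before the RefSeq start to 20 from it on (GRCh38.p14), and capitals mark the run of C and T from a C at the start; windows without capitals do not begin with C. SNHG6 and SNHG15 had no entry.
ZFAS1 (chr20:49278622-49278661, plus strand): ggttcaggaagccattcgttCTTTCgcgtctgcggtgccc
SNHG32 (chr6:31834896-31834935, plus strand): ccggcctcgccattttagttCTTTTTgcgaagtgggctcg
SNHG5 (chr6:85678714-85678753, minus strand): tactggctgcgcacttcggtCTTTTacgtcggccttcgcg
SNHG1 (chr11:62855866-62855905, minus strand): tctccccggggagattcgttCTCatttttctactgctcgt
GAS5 (chr1:173869026-173869065, minus strand): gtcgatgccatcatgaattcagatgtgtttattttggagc
SNHG29 (chr17:16438967-16439006, plus strand): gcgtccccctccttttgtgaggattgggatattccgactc
SNHG16 (chr17:76557744-76557783, plus strand): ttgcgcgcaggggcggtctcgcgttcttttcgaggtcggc
SNHG17 (chr20:38435309-38435348, minus strand): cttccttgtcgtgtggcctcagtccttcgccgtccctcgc
A run of 5 or more pyrimidines from a C at the start, read on the strand of the gene, was found for 3 of these 8 members (ZFAS1, SNHG32 and SNHG5). It was found for 3 of 25 members not called (SNHG4, SNHG12 and SNHG19) and for 0 of the 4 that fell. Of all 35116 RefSeq promoters 4.07% had such a start. Among the genes tested with an entry it was 7.503%, among those that rose 10.7% and among those that fell 6.56%. The run describes the listed start, and a window without it says only that these letters are not at that listed position.

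MIR503HG, the X-linked host of the microRNA gene MIR503, was the member with the second largest decrease. It read 8.73, 7.54 and 6.75 FPKM in si-SCR and 5.10 and 4.36 FPKM in si-circVAMP3. The controls were spread over about 2 FPKM, and the lowest of them was above both si-circVAMP3 samples. The fall was 0.62-fold of the control level (log2 fold change -0.68, SE 0.120, adjusted p 0.00827), on 699, 566 and 506 fragments in si-SCR and 284 and 377 in si-circVAMP3. Without si-circVAMP3 replicate 2 the call was lost (adjusted p 0.0691, over the alternatives 0.00377 to 0.0691). The canonical MIR503HG transcript holds no seed match of the siRNA. The mature microRNAs of this locus are shown with those of DLEU2, another member, because their seeds are alike; capitals mark bases 2 to 8 (RefSeq, GRCh38.p14, minus strand, chrX:134546371-134546393, chrX:134546680-134546701, chr13:50049027-50049048 and chr13:50049167-50049188).
hsa-miR-503-5p: uAGCAGCGggaacaguucugcag
hsa-miR-424-5p: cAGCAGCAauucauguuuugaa
hsa-miR-16-5p: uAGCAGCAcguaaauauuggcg
hsa-miR-15a-5p: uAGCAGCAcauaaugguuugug
The seeds of the latter 3 are identical, and that of hsa-miR-503-5p begins with the same AGCAGC. MIR503 lies inside MIR503HG and MIR424 just upstream of it. Mature microRNAs are not measured in poly-A libraries. DLEU2, which contains MIR15A and MIR16-1, read 2.44, 2.58 and 2.88 FPKM in si-SCR and 2.49 and 2.27 FPKM in si-circVAMP3, with overlapping groups (adjusted p 0.341). Of the 12 tested members that contain a microRNA gene, 1 fell (MIR503HG) and none rose, and the same 1 of 12 had an unadjusted p below 0.05. Of all genes 12.8% rose, 14.7% fell and 40.5% had such an unadjusted p. MIR17HG, precursor of the miR-17 family cluster, lay between 3.09 and 3.69 FPKM (adjusted p 0.255), and MIR22HG between 2.51 and 3.13 FPKM (adjusted p 0.230).

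OIP5-AS1 and CRNDE had the remaining decreases, both small. OIP5-AS1, a cytoplasmic lncRNA known as cyrano in other vertebrates, read 8.69, 8.47 and 9.07 FPKM in si-SCR and 6.98 and 7.33 FPKM in si-circVAMP3. The groups were separated by more than the spread within either (log2 fold change -0.29, SE 0.0590, adjusted p 0.0143). Among the losses of its call were those without si-circVAMP3 replicate 1 (0.107) or 2 (0.0646), with adjusted p from 0.0124 to 0.107 over the alternatives. CRNDE, an lncRNA named for its expression in colorectal neoplasia, read 1.90, 1.98 and 1.88 FPKM in si-SCR and 1.58 and 1.53 FPKM in si-circVAMP3. The values did not overlap, but its adjusted p of 0.0499 lay at the threshold (log2 fold change -0.29). The call was lost without any 1 of the 5 samples (si-SCR replicate 1 0.0928, 2 0.148 and 3 0.0581, si-circVAMP3 replicate 1 0.162 and 2 0.206), with no filter on low values (0.0520), after median-centring (0.0632) and after quantile normalization (0.0761), and the adjusted p ran from 0.0250 to 0.206 over all alternatives.

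The nuclear and imprinted lncRNAs had low FPKM values in these libraries. MALAT1, the speckle RNA whose mature end has no poly-A tail, read 2.73, 2.92 and 2.96 FPKM in si-SCR and 2.47 and 4.35 FPKM in si-circVAMP3. The 2 si-circVAMP3 samples lay on opposite sides of the controls, and no change was called (adjusted p 0.551). NEAT1, the scaffold of paraspeckles, read 1.14, 1.07 and 1.09 FPKM in si-SCR and 0.856 and 1.06 FPKM in si-circVAMP3 (adjusted p 0.289). Of 12 paraspeckle and nuclear speckle proteins none passed the test with limma (against 27.5% of all genes), and 3 had an unadjusted p below 0.05 (25%, against 40.5%). HNRNPK, the most abundant of these, read 231, 227 and 239 FPKM in si-SCR and 213 and 215 FPKM in si-circVAMP3 (adjusted p 0.0732), and was called only after quantile normalization (0.0312, over the alternatives 0.0312 to 0.283). H19 lay between 0.194 and 0.503 FPKM, with 16.7 to 50.2 fragments per sample. KCNQ1OT1 lay between 0.264 and 0.380 FPKM, but its exons add up to 92625 bases, and this was 453 to 879 fragments per sample. The SE of the H19 log2 fold change was 0.229, against 0.0482 for ZFAS1. TUG1, a broadly expressed lncRNA, read 33.4, 36.5 and 37.5 FPKM in si-SCR and 31.9 and 32.8 FPKM in si-circVAMP3, lower in both without passing the test (log2 fold change -0.14, adjusted p 0.109). CYTOR, DLEU1, LINC-PINT, MIR100HG and PVT1 were at or below 1.53 FPKM in each sample, with adjusted p between 0.187 and 0.868.

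Of the members, 8 start within 1000 bases of a protein-coding gene on the opposite strand. Of these 8 members 3 rose, where 22.7% of all members and 12.8% of all genes rose. SNHG1 starts 51 bases from SLC3A2, the heavy chain of amino acid transporters. SLC3A2 read 21.2, 19.8 and 17.3 FPKM in si-SCR and 22.8 and 25.9 FPKM in si-circVAMP3, and it rose too (log2 fold change 0.33, adjusted p 0.0447). This call was lost without si-SCR replicate 2 (0.0969) or si-circVAMP3 replicate 1 (0.0858) or 2 (0.248), after quantile normalization (0.0508) and with no trend (0.0921), with adjusted p from 0.0309 to 0.248 over the alternatives. ZNFX1, 248 bases from ZFAS1, read 6.33, 6.94 and 7.18 FPKM in si-SCR and 7.60 and 8.08 FPKM in si-circVAMP3 (log2 fold change 0.20, adjusted p 0.0859), and passed the test without si-SCR replicate 3 (0.0474, over the alternatives 0.0474 to 0.348). ZBTB37, 800 bases from GAS5, read 1.59, 1.82 and 2.08 FPKM in si-SCR and 1.72 and 1.81 FPKM in si-circVAMP3, where GAS5 was clearly higher (log2 fold change of ZBTB37 -0.04, adjusted p 0.839). Over all 8 neighbours 2 rose (25%, against 12.8% of all genes), 2 fell (25%, against 14.7%) and 4 were not called. TRAF7 beside SNHG19 and MKLN1 beside LINC-PINT fell (log2 fold change -0.62 and -0.42), and MORC2 beside TUG1 rose (0.24), while none of these 3 members was called.

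Genes of RNA decay, the route by which many spliced snoRNA hosts are removed, moved in both directions. Of 20 genes of nonsense-mediated decay 2 rose (10%, against 12.8% of all genes) and 6 fell (30%, against 14.7%). MAGOH of the exon junction complex fell by 0.42 (adjusted p 0.00136), SMG5 of the late decay step by 0.36 (adjusted p 0.00355) and UPF2 of the core by 0.30 (adjusted p 0.00771), while RNPS1 rose by 0.24 (adjusted p 0.00622). UPF2 lost its call without si-circVAMP3 replicate 1 (0.0666), and RNPS1 without replicate 1 (0.0559) or 2 (0.0551) of that group. Of 19 genes of the nuclear RNA exosome and its cofactors 4 rose (21.1%) and 1 fell (5.26%). ZCCHC7, a cofactor of nuclear polyadenylation and decay, read 9.93, 9.60 and 10.1 FPKM in si-SCR and 13.7 and 14.4 FPKM in si-circVAMP3 (log2 fold change 0.50, adjusted p 0.00150). EXOSC2 (0.21), RBM7 (0.29) and ZCCHC8 (0.29) rose less. Without si-circVAMP3 replicate 1 or 2 the calls of EXOSC2 (0.119 and 0.0631), RBM7 (0.150 and 0.129) and ZCCHC8 (0.164 and 0.146) were lost. The same held without si-SCR replicate 2 (0.0622, 0.0985 and 0.0813 in that order), and RBM7 and ZCCHC8 also lost theirs without si-SCR replicate 1 (0.0629 and 0.0740). Among 19 of 20 p53 target genes with values, 2 rose (10.5%; CDKN1A 0.67 and AEN 0.37 on the log2 scale) and 3 fell (15.8%), among them TP53INP1 (-1.33) and MDM2 (-0.73). TP53INP1 lies near 1 FPKM, and its log2 fold change was -0.61 with a pseudocount of 1. Without si-circVAMP3 replicate 1 the call of AEN was lost (0.0543). The part of these genes in the levels of the members was not tested.

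The seed match of the siRNA was counted over all genes, since NORAD holds it. Of 13642 genes tested with a canonical transcript in GENCODE 44, 30.2% held the letters GTGGACA at least once (95% Wilson interval 29.4 to 31.0). Among the genes that fell it was 50.2% (48.1 to 52.4), among those not called 28.4% and among those that rose 17.0% (15.3 to 18.9). Transcript length differs in the same order, with medians of 3600 bases for genes that fell, 3185 for those not called and 2698 for those that rose. Among the 4 members that fell, the canonical transcript of NORAD holds the match and those of MIR503HG, OIP5-AS1 and CRNDE do not. The longest transcript of OIP5-AS1 holds it once. SNHG17 and SNHG32 hold it once each and rose. EPB41L4A-AS1, whose match shares 10 bases with the siRNA as the longer match in NORAD does (chr5:112164413-112164432, plus strand, exon 3), was not called.
EPB41L4A-AS1, position 3118: gtcttggttGTGGTGGACAc
CYTOR, MALAT1, NEAT1 and PVT1 hold 1, 1, 2 and 1 matches and were not called. In the longest transcripts CYTOR and PVT1 hold none, GAS5, SNHG3, SNHG11, SNHG14 and MIR100HG hold 1 each, and KCNQ1OT1 holds 6. The part of seed pairing and of transcript length in the calls was not tested.

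**Figure D5:**
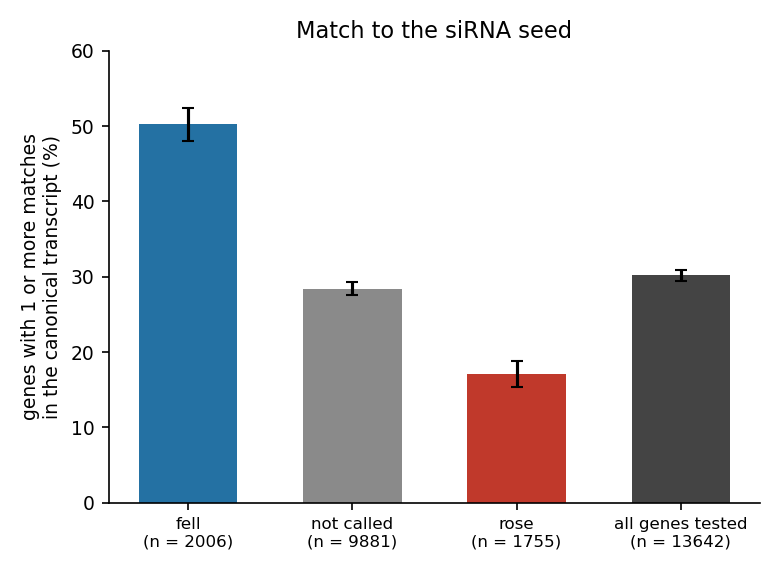
Share of genes with at least 1 match to the siRNA seed in the canonical transcript (vertical axis, percent, starting at 0) among genes that fell (2006), were not called (9881) or rose (1755) and among all 13642 genes; the bars on the columns are 95% Wilson intervals, which cover counting error only. The share runs from 50.2% in genes that fell to 17.0% in genes that rose.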

How the data were processed

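Gene-level FPKM values of 5 poly-A+ libraries (3 si-SCR, 2 si-circVAMP3) were used as deposited. Per the study's methods, the authors trimmed reads with Trimmomatic, aligned them with STAR 2.5.2b to GRCh38 with Ensembl 99, counted them by strand with HTSeq and computed FPKM with edgeR. Symbols came from the gene name table (13783 of 13822 genes matched). Gene models came from GENCODE 44 and snoRNA genes, start sites and microRNAs from RefSeq GRCh38.p14. These share the authors' genome build but not their annotation release. RefSeq snoRNA entries were listed without a strand, and those that GENCODE places on the other strand were left out.

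Values were analysed as log2(FPKM + 0.1) for the 13681 genes with a mean of at least 0.1 FPKM, so fold changes of low genes are understated. limma 3.58.1 in R 4.3.3 (empirical Bayes with trend, two-sided) compared the groups, with Benjamini-Hochberg adjustment over all genes tested, and "rose" and "fell" mean an adjusted p below 0.05. The fit was first tested on simulated data. Python 3.11.15 was used for the rest.

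Depth was read from the steps of the FPKM values with GENCODE exon lengths. This gave depths (fragments per kilobase at 1 FPKM) of 26.7, 25.0 and 24.9 in si-SCR and 18.5 and 28.8 in si-circVAMP3, and 77.6 to 78.9% of genes with 5 to 100 fragments came out whole within 0.1. This share was too low for a count test. Of the members, 16 came out whole in every sample, and fragment numbers given for H19 and KCNQ1OT1, which did not, are approximate.

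Named genes were the members that passed, the 6 most abundant members, the 4 others with the largest change among those of at least 1 FPKM on average, VAMP3, up to 4 genes per list with the smallest p (else the most abundant), and divergent neighbours of passing members. Other members, the neighbours of members not called and marker genes were named after their values were seen. Lists were snoRNP core and assembly, nonsense-mediated decay, protein-coding snoRNA hosts, paraspeckle and nuclear speckle proteins, NORAD partners (not reported here), nuclear RNA exosome and decay, p53 targets, divergent neighbours and cell type markers. Members and lists were chosen with earlier results of these data known. Searches for sequence matches were chosen after seeing the data. Alternatives were other pseudocounts, filters, centring, quantile normalization, no trend, a fold threshold, a replicate block and leaving out each sample.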

Additional observations from a re-analysis of the deposited data

How the results depend on the processing

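In every alternative fit at the same adjusted p, the calls of NORAD, ZFAS1, GAS5, SNHG15, SNHG29 and SNHG32 were kept, and none of the 14 called members turned sign. Leaving out 1 sample at a time gave 1267 to 4014 called genes (455 to 1962 rose, 803 to 2052 fell) against 3767 (1758 and 2009). It gave 7 to 13 called members (6 to 10 rose, 1 to 4 fell) against 14, and a VAMP3 log2 fold change of -0.31 to -0.27. The lowest counts came without si-circVAMP3 replicate 2 (1267 genes, 7 members) and replicate 1 (1277 and 9), which leaves 1 sample that is assumed to vary like the other group, and without si-SCR replicate 2 (2157 and 11). An absolute log2 fold change above 0.58 left 793 genes (227 rose, 566 fell) and 4 members (2 and 2). Centring each sample on its median gave 3833 genes, of which 2022 rose and 1811 fell, so more rose than fell, the reverse of the main fit. It gave 14 members (11 rose, 3 fell, with SNHG11 gained and CRNDE lost). No trend gave 3067 genes and 11 members. With the replicate block, 2868 genes and 13 members were called, 11 that rose (SNHG25 gained, adjusted p 0.0272) and 2 that fell (not OIP5-AS1, 0.0502, and CRNDE, 0.0987). Of other genes, SLC3A2 (0.0894), PIH1D1 (0.0742), RBM7 (0.0535) and ZCCHC8 (0.0594) were not called with the block. Deviations of same-numbered samples from their group means correlated at -0.15 and -0.04. With 2 si-circVAMP3 samples the deviations in that group are mirror images. These correlations therefore cannot show whether same-numbered samples were paired. The log2 fold change of ZBTB37 (-0.04) turned to 0.0513 with the replicate block and without si-SCR replicate 3, and was -0.132 without si-SCR replicate 1. That of SNHG25 (0.28) turned to -0.0578 without si-circVAMP3 replicate 1, and was 0.628 without si-SCR replicate 3 and with the replicate block. ZBTB37 was called in no fit and SNHG25 only with the block, and the cause was not tested. In the longest transcripts, chosen after seeing the data, 32.0% of genes held the seed match (31.99 against 30.18).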
